A study of Mus musculus with 4 samples.

Results

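Potassium channel genes were taken as every gene of the deposited expression files whose symbol was Kcn followed by lower-case letters and a number. These symbols cover the pore-forming subunits of potassium channels and the auxiliary subunits named with them. Of the 27189 genes in the files, 88 met this rule, in 89 rows, since Kcnh8 had 2 rows, of which the row with the higher level was used. Levels are RPKM, reads scaled to transcript length and to the mapped reads of the library. The mean RPKM over all 4 libraries was at least 1 for 50 of the 88 genes, and these 50 were tested. The other 38 lay below that level, and 4 of them (Kcng3, Kcnj1, Kcnj4 and Kcnmb1) were listed at 0 in every library.

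The RNA came from motor neuron cell bodies cut by laser from the ventral horn of frozen mouse spinal cord, in a study of a model of amyotrophic lateral sclerosis. Both groups of mice, on a C57BL/6J x SJL/J background and 3 months old, carried a human genomic SOD1 transgene fused to a yellow fluorescent protein (YFP). In the wild-type group (line 592) the transgene coded for wild-type SOD1-YFP, and in the G85R group (line 737) for SOD1-YFP with the disease mutation G85R. Each group had 2 libraries, each made from 1 mouse. The G85R mice carried many more copies of the transgene, and each genotype was a single transgenic line, so that mutation, copy number and line cannot be told apart. The transgene is driven by its own SOD1 promoter and is not limited to motor neurons. Motor neurons that stained very dark, which are those with aggregates, were not collected.

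Potassium channels let potassium leave the neuron and thereby set the resting potential, end the action potential and limit how fast a neuron can fire. Voltage-gated (Kv) channels open on depolarization, calcium- and sodium-activated channels follow the ions that enter during spikes, inward rectifiers and tandem-pore leak channels act near rest, and auxiliary subunits change the traffic and gating of the pores. Large spinal motor neurons use Kv3 channels for brief spikes, small-conductance calcium-activated channels for the pause after each spike, and acid-sensitive tandem-pore channels for their resting conductance.

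The pore-forming subunits share a short stretch, the selectivity filter, which strips water from potassium and lets it pass. For each gene it was searched in the longest coding sequence that starts with ATG, or the longest of all where none does. These came from GENCODE on NCBIM37, the same assembly as mm9, the build of the files. The pattern was 5 codons for threonine or serine, then valine, isoleucine, leucine or threonine, then glycine, then tyrosine, phenylalanine or leucine, then glycine. The pattern was found in 71 of 73 pore-forming genes (97.3%), in 0 of 15 auxiliary genes and in 1.5% of all 22594 coding genes. The exceptions were Kcnh8 and Kcnma1, for which the sequences searched held only 215 and 232 codons. All 13 tandem-pore genes held the pattern at least 2 times. Below are the 27 bases around the filter, with its 5 codons in capitals, for 5 of the pore-family members with the smallest p in the genotype comparison, and for Kcnc1 and Kcnc2, Kv3 genes that are set beside Kcnc4 further on.
Kcnj11: caggtgACCATTGGTTTCGGCgggcgc
Kcna6: atgaccACGGTAGGTTATGGGgacatg
Kcng1: atgacaACCGTAGGCTACGGAgacatg
Kcns3: atgaccACAGTGGGCTATGGAgacacc
Kcnc1: atgacgACACTGGGCTATGGAgacatg
Kcnc2: atgactACCTTAGGTTACGGGgatatg
Kcnc4: atgacaACGCTTGGCTATGGGgacatg

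All of these stretches lie in coding exons. The Kcnj11 stretch is at chr7:53354860-53354886 on the minus strand, in the only exon of its transcript. Those of Kcna6 (chr6:126688659-126688685), Kcng1 (chr2:168088135-168088161), Kcns3 (chr12:11098375-11098401) and Kcnc4 (chr3:107250711-107250737) are on minus strands. Those of Kcnc1 (chr7:53683337-53683363) and Kcnc2 (chr10:111893279-111893305) are on plus strands. Kcnc1, Kcnc2 and Kcnc4 encode the same 5 residues here. The filter of Kcnj11 ends in glycine, phenylalanine and glycine, as it does in 2 of the 14 inward rectifier genes (Kcnj8 and Kcnj11, the Kir6 pair), whereas the other 12 encode tyrosine between the glycines. Kcns3 and Kcng1, which do not form channels alone, nevertheless encode a filter, as did all 9 genes of the silent Kv families.

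Estimated reads on genes numbered 21560318 to 25186594 per library, and 1 read was worth a median of 0.0195 to 0.0226 RPKM, so that members near an RPKM of 1 rested on few reads. Motor neuron markers (6 of 6 measured, among them Chat, which makes acetylcholine, and Prph, a neurofilament protein) summed to an RPKM of 1370 to 1642 in the wild-type and 1191 to 1452 in the G85R libraries. The 6 astrocyte markers summed to 33.8 to 37.1 in wild-type and to 49.1 to 124 in G85R libraries, and the 6 microglial markers to 11.7 in both wild-type and 12.4 to 26.7 in G85R libraries, with G85R replicate 1 the highest for both. Most of the astrocyte difference came from Gfap, the astrocyte filament gene (11.5, 17.1, 91.9 and 28.4). The other 5 astrocyte markers were summed without Gfap after its values were seen. They had 22.3 and 20.0 in wild-type against 31.7 and 20.6 in G85R libraries, so that G85R replicate 2 lay within the wild-type range. Their log2 fold changes ran from -0.03 to 0.65, and 1 of the 6 astrocyte markers was below 0. The sums of the other lists were 790 to 840 and 775 to 1002 for 6 oligodendrocyte markers, 186 to 191 and 200.1 to 217 for 5 markers of other neurons, 8.40 to 9.27 and 6.97 to 7.44 for 5 endothelial markers, and 2.94 to 3.51 and 3.44 to 3.73 for 4 mural cell markers. No marker was at 0 in every library. RNA of other cells was detected in every library, and its part in the genotype differences below was not tested. In bulk samples such as these, fewer cells of a type and less RNA per cell cannot be told apart.

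In wild-type motor neurons, abundant potassium channel RNAs coded for Kv beta subunits, a silent Kv subunit, the Kv1.1 pore and the Kv3.1 pore. Kcnab2, a cytoplasmic Kv beta subunit that binds Kv1 channels, had 348 ± 32.3 RPKM (mean ± SD of the 2 libraries, as for all means here), above 99.5% of all genes. Kcng4, a silent subunit that modifies Kv2 channels, had 159.6 ± 16.3, and Kcnab1, also a Kv beta subunit, 138 ± 3.79. Kcna1 (Kv1.1), a pore of low-threshold channels on axons, stood at 125 ± 5.24, and Kcnc1 (Kv3.1), a pore of fast, high-threshold channels, at 82.2 ± 0.134. The wild-type libraries of neighbours among these 5 genes did not overlap. Kcnmb4 (64.7), Kcnh2 (59.5), Kcnk1 (53.7), Kcnab3 (52.1), Kcnc4 (52.1) and Kcnk3 (49.5) followed, each overlapping with the next, so their order was not resolved, and Kcnip1 came below them with 41.8. Summed over all 88 genes, the RPKM was 1803 and 1899 in the wild-type against 1742 and 1794 in the G85R libraries.

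**Figure D1:**
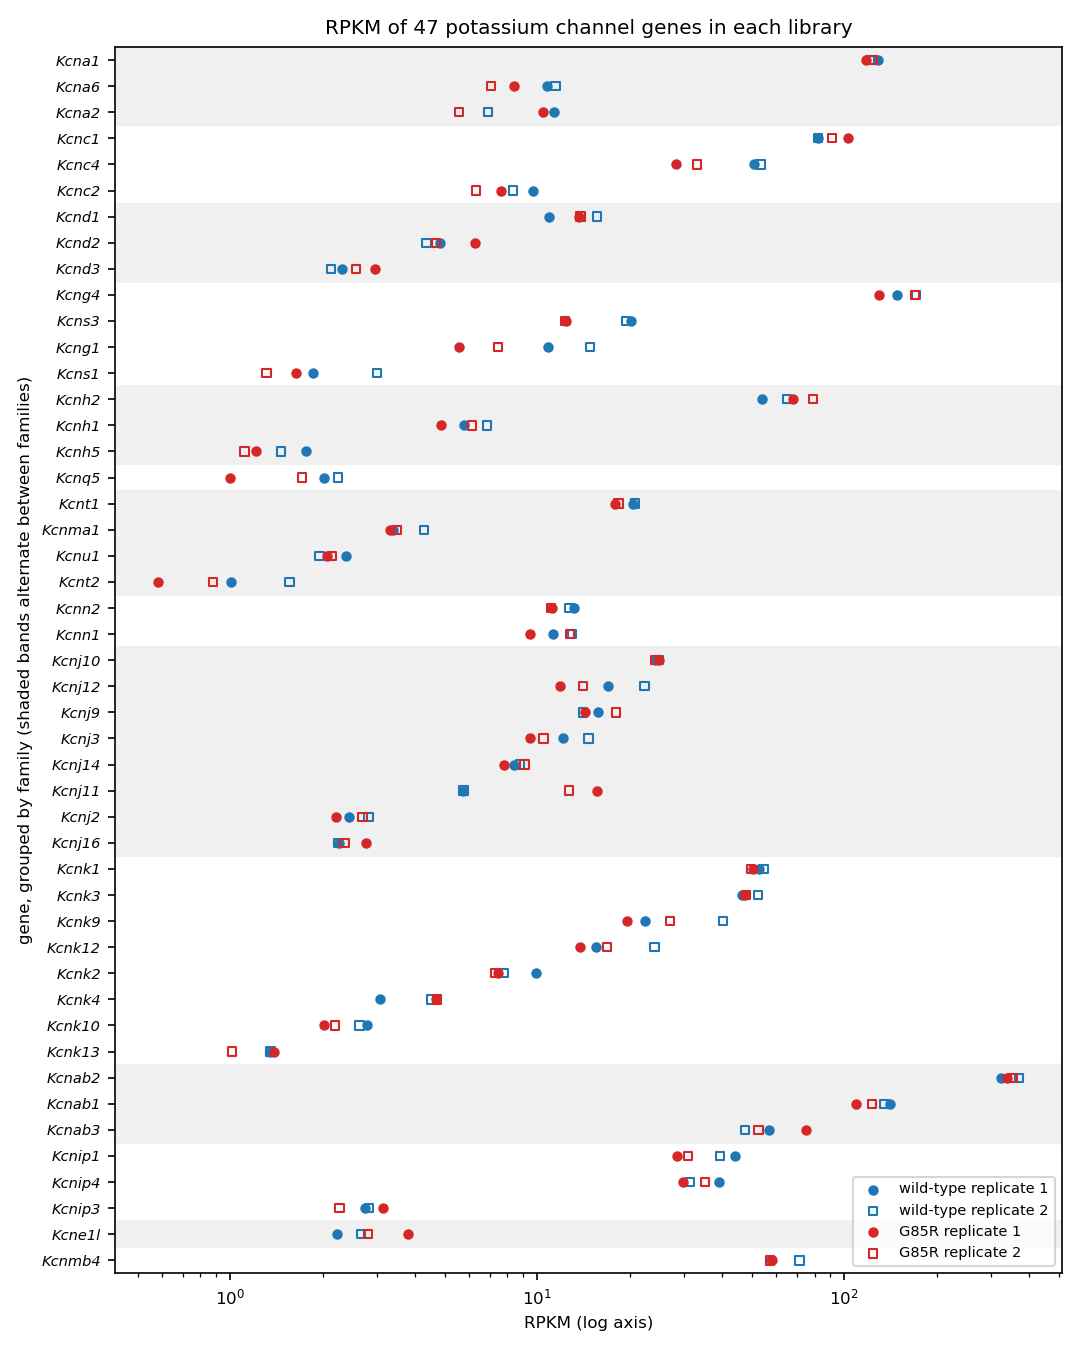
RPKM (log axis) of 47 of the 50 tested potassium channel genes in each library, grouped by family and ordered by the wild-type mean within a family, with wild-type libraries in blue, G85R in red, replicate 1 filled and replicate 2 open. Kcnab2 (348), Kcng4 (159.6) and Kcnab1 (138) have the highest wild-type means of the genes drawn, and the Kcnj11 points of the G85R libraries (15.7 and 12.7) stand apart from those of the wild-type libraries (5.73 and 5.76).

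The genotype comparison asks which channel RNAs differ between G85R and wild-type motor neurons at 3 months. Kcnj11 was the only member to pass the threshold after adjustment over all tested genes, and it was 2.43-fold higher in G85R. Other members had higher or lower values without passing it. The 11 members with the next smallest p were all lower in G85R, led by the Kv3.4 gene Kcnc4 and the silent subunit genes Kcns3 and Kcng1, but none of these 11 passed the threshold after adjustment over all tested genes. Fold changes are log2 differences of G85R minus wild-type on log2(RPKM + 0.1), tested with limma, and a gene was called at an adjusted p under 0.05. Of the 50 tested members 1 was called, or 2.0%, and it was higher, beside 0.642% of all 11530 tested genes in either direction and 0.269% higher. At an unadjusted p under 0.05 there were 12 members (24.0%) against 11.0% of all genes, with 1 higher (2.0% against 4.66%) and 11 lower (22.0% against 6.37%). With each library rescaled by the median ratio to the others, the split at an unadjusted p under 0.05 was 3 higher and 8 lower. Kcnc1 and Kcnh2 joined Kcnj11 among the higher genes, and Kcnab1, Kcnq5 and Kcns1 left the lower ones.

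The genotypes did not overlap for 26 of the 50 members (52.0%), beside 41.2% of all tested genes. The log2 difference was below 0 for 36 members (72.0%), beside 54.7% of all tested genes, and its median was -0.14 over members and -0.02 over all tested genes. Of the motor neuron markers 5 of 6 were also below 0 (median -0.21). Chat (-0.36), Prph (-0.26) and Mnx1 (-0.18) did not overlap between the genotypes. Isl1 (-0.24), Slc18a3 (-0.14) and Slc5a7 (0.04) overlapped. Of the 5 markers of other neurons 0 were below 0 (median 0.14). The part of either marker list in the members' values was not tested. Leaving out 1 library at a time, 31 (without wild-type replicate 2) to 36 members were below 0. Of 40 members with a textbook role in motor neurons or spinal glia, 34 were tested and 0 were called. At an unadjusted p under 0.05 there were 9, all lower in G85R, beside 11.0% of all tested genes in either direction and 6.37% lower. These 9 are among the 11 lower members above. The list was chosen with earlier results of these data known and lacks Kcnj11, so it adds no separate support.

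**Figure D2:**
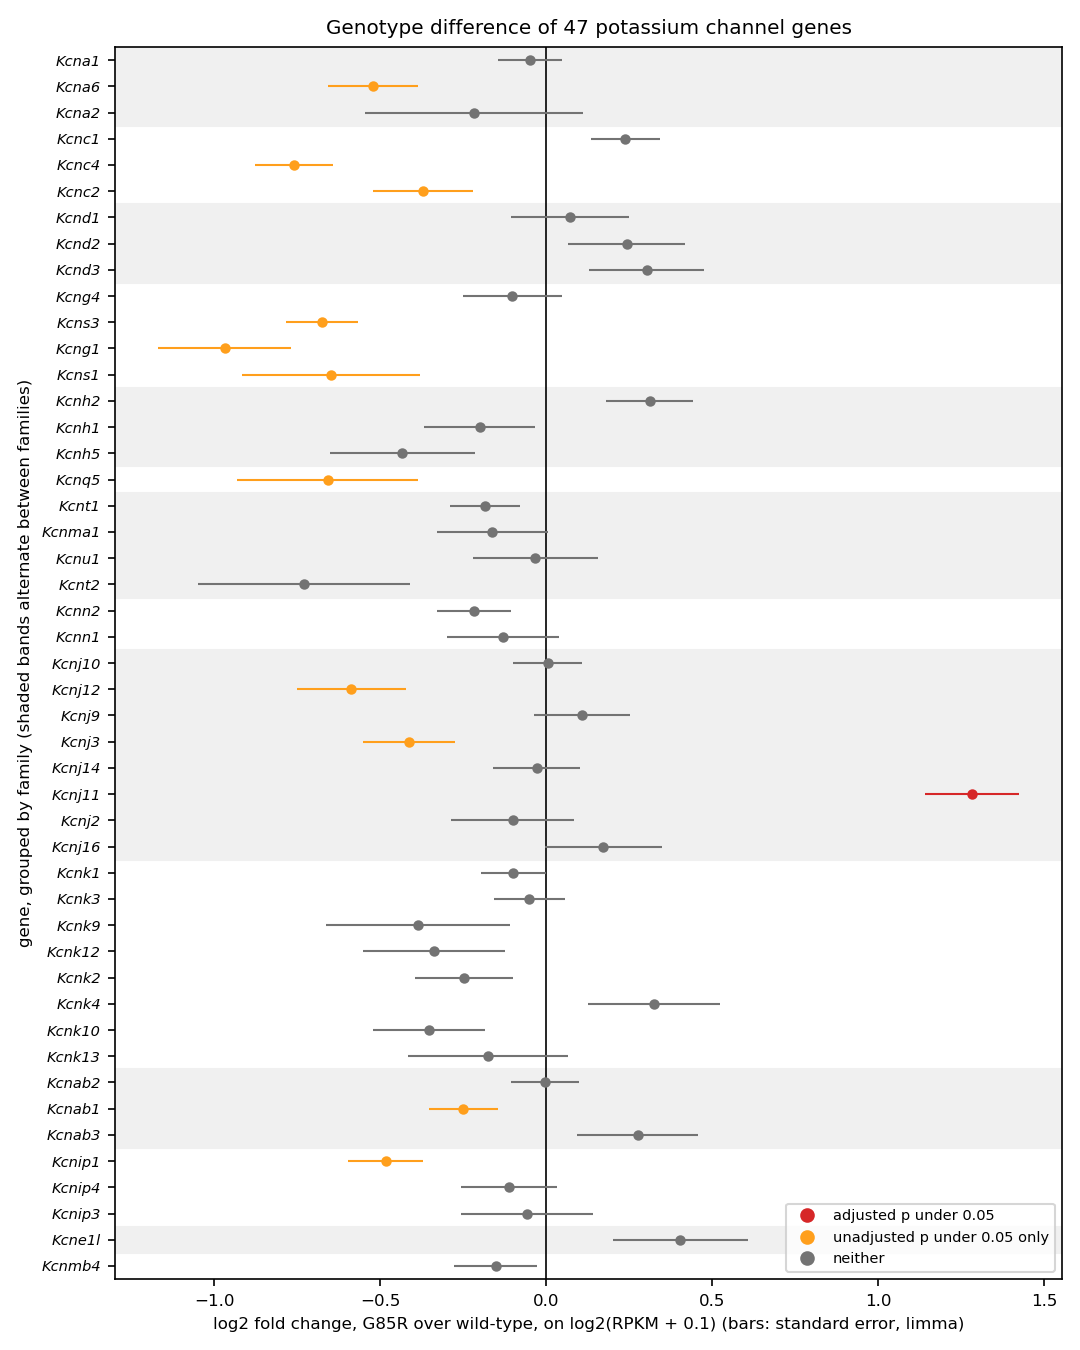
Log2 fold change of G85R over wild-type on log2(RPKM + 0.1) for 47 of the 50 tested potassium channel genes, grouped by family, with bars for the limma standard error, red for an adjusted p under 0.05 and orange for an unadjusted p under 0.05 only. Kcnj11 is the only red point, at 1.28, and the 11 orange points are all below 0.

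Kcnj11 encodes Kir6.2, the pore of the ATP-sensitive potassium (KATP) channel, which closes when ATP is plentiful and opens when it falls, and so ties the excitability of a cell to its metabolism. Its RPKM was 5.73 and 5.76 in the wild-type against 15.7 and 12.7 in the G85R libraries, which rested on 515 and 550 against 1288 and 1108 estimated reads. Both G85R libraries thus lay above both wild-type libraries, and the gap between the genotypes was larger than the spread within either of them. The log2 fold change was 1.28 with a standard error of 0.14 and a 95% interval of 0.95 to 1.62 (adjusted p = 0.0167, limma). In wild-type motor neurons Kcnj11 ranked above 72.6% of all genes in level.

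G85R replicate 1, the library with the most astrocyte RNA, also had the highest Kcnj11 value. Without that library the log2 fold change was 1.13 (adjusted p = 0.0143), and without G85R replicate 2 it was 1.43 (adjusted p = 0.00177). Kcnj10, the potassium channel of astrocytes and oligodendrocytes known as Kir4.1, was level at 24.1, 24.9, 24.9 and 24.2 across the same 4 libraries. RNA of both cell types is counted together in these values, and the part of glial RNA in the Kcnj11 difference was not tested. The call of Kcnj11 was lost when genes of any level were tested together (log2 fold change 1.28, adjusted p = 0.360), and under a Poisson likelihood ratio test on rounded RPKM of the kind the study used (log2 fold change 1.30, adjusted p = 1.0), so the fold stayed as large in both.

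The KATP channel also needs a sulfonylurea receptor, which is SUR1 (Abcc8) or SUR2 (Abcc9). Abcc8 stood at 10.9 and 14.1 in wild-type against 16.4 and 17.5 in G85R libraries, higher in both G85R libraries by a smaller amount (log2 fold change 0.45, standard error 0.15, adjusted p = 0.338, limma). The ratio of Kcnj11 to Abcc8 in RPKM was 0.525 and 0.408 in wild-type against 0.956 and 0.727 in G85R libraries, so that pore RNA came nearer to the level of receptor RNA in both G85R libraries. The other members of the KATP family were low. Kcnj8, the Kir6.1 pore, had 0.219 and 0.294 in wild-type against 0.652 and 0.323 in G85R libraries, and Abcc9 had 0.246, 0.227, 0.315 and 0.350 in the same order, both below the level tested. With genes down to a mean RPKM of 0.1 included, Kcnj8 had a log2 fold change of 0.67 (adjusted p = 0.594). Kcnj8 was named after its values were seen, because it is the other Kir6 pore.

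Kcnj11 (chr7:53352533-53355607, minus strand) and Abcc8 (chr7:53359893-53435403, minus strand) are neighbours, with 4285 bases between them in the annotation. The exons of Kcnj11 overlapped those of no other annotated gene. Within 500 kb of Kcnj11, 16 other genes were tested, of which 8 were above 0 and 8 at or below 0 in log2 fold change. Besides Abcc8, the hormone gene Fgf21 was higher at an unadjusted p under 0.05, with 0.470 and 0.578 in wild-type against 3.84 and 1.23 in G85R libraries (log2 fold change 1.88, adjusted p = 0.198), although it reached the tested level only through the G85R libraries, where it was higher. Sult2b1, a sulfotransferase gene, fell, from 11.2 and 15.4 to 3.99 and 5.58 (log2 fold change -1.46, adjusted p = 0.0477), the opposite direction to Kcnj11. Both genes were singled out after their values were seen. The potassium channel genes Kcnj14 and Kcnc1 in this interval had log2 fold changes of -0.03 and 0.24, and neither was called, Kcnj14 being named for its place only.

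**Figure D3:**
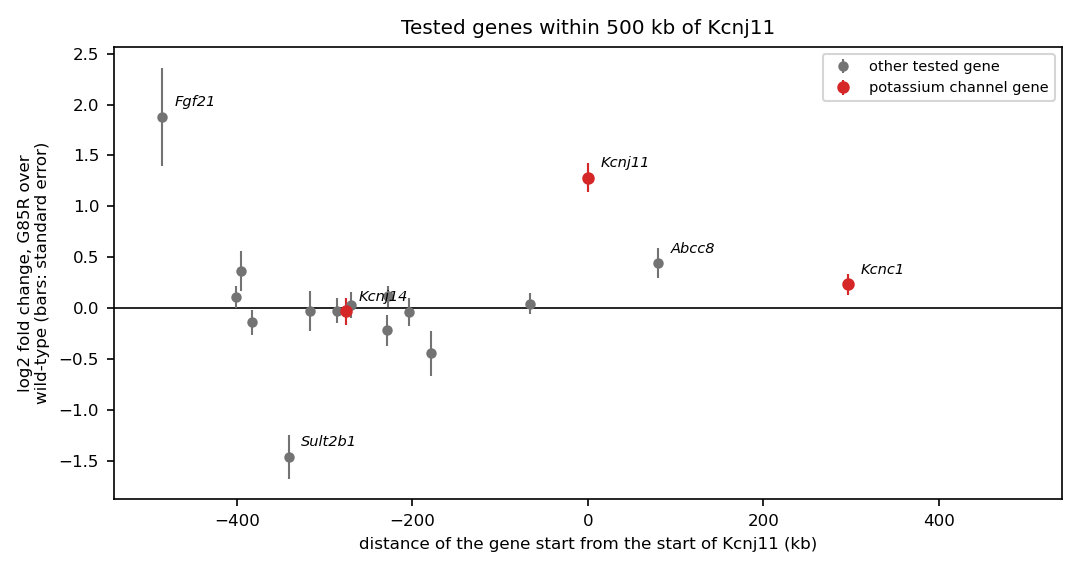
Log2 fold change of G85R over wild-type, with its limma standard error, of the tested genes within 500 kb of Kcnj11, against the distance of the gene start from that of Kcnj11 in kb, with potassium channel genes in red. Fgf21 (1.88), Kcnj11 (1.28) and Abcc8 (0.45) lie above 0, Sult2b1 (-1.46) below, and most of the others close to 0.

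Among the Kv3 pores, Kcnc4 and Kcnc2 had lower values in G85R and the more abundant Kcnc1 did not. Kv3 channels open only near the peak of a spike and close quickly, which allows short spikes and fast firing, and Kcnc4 (Kv3.4) forms the kind that inactivates quickly. Kcnc4 had 50.9 and 53.3 RPKM in wild-type against 28.4 and 33.2 in G85R libraries, with no overlap (log2 fold change -0.76, standard error 0.12, adjusted p = 0.0508, limma), a level lower by 1.69-fold. It missed the threshold narrowly. Its adjusted p was 0.0194 without G85R replicate 2 and 0.0588 to 0.119 without any of the other libraries. Under other settings, a replicate block aside, it ran from 0.0227 (voom on the estimated reads) to 0.0788 with quantile normalization, 0.130 without the trend, 0.232 in the log-linear test and 0.426 without a filter.

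Kcnc2 (Kv3.2) had 9.70 and 8.32 in wild-type against 7.60 and 6.30 in G85R libraries (log2 fold change -0.37, adjusted p = 0.431). Kcnc1 had 82.3 and 82.1 against 103 and 91.3, higher in both G85R libraries but not called (log2 fold change 0.24, adjusted p = 0.472). Kcnc4 and Kcnc1 thus differed in the direction of their values.

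The silent Kv subunits do not open as channels alone, but join Kv2 pores and change their gating. Of 9 such genes 4 were tested, all 4 were below 0 in log2 fold change with a median of -0.66, and 3 of them had an unadjusted p under 0.05, but 0 were called. Kcns3 (Kv9.3) had 20.1 and 19.5 RPKM in wild-type against 12.4 and 12.3 in G85R libraries, a difference far larger than the spread within either genotype (log2 fold change -0.68, standard error 0.11, adjusted p = 0.0591). Kcng1 (Kv6.1) had 10.9 and 14.9 against 5.58 and 7.46 (log2 fold change -0.97, standard error 0.20, adjusted p = 0.124), the largest decrease in value of any tested member. Its adjusted p was 0.0376 without wild-type replicate 1 and 0.0179 without G85R replicate 2, but 0.228 without wild-type replicate 2 and 0.182 without G85R replicate 1. Kcns1 (Kv9.1) was much lower in level, with 1.85 and 3.00 against 1.64 and 1.31 (log2 fold change -0.65, adjusted p = 0.441).

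Kcng4 (Kv6.4), by far the most abundant of this group, had 148 and 171 in wild-type against 129.5 and 169.7 in G85R libraries, and the genotypes overlapped (log2 fold change -0.10, and 0.09 without G85R replicate 1). Kcng4 made up 81.4% and 81.6% of the summed RPKM of the silent subunits in wild-type against 86.5% and 88.6% in G85R libraries, and Kcns3 made up 11.1% and 9.30% against 8.29% and 6.43%. Kcnv1 (Kv8.1), below the level tested, had 0.530 and 0.638 in wild-type against 0.188 and 0.161 in G85R libraries. With genes down to a mean RPKM of 0.1 included, its log2 fold change was -1.32 (adjusted p = 0.169), and it was named after its values were seen.

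**Figure D4:**
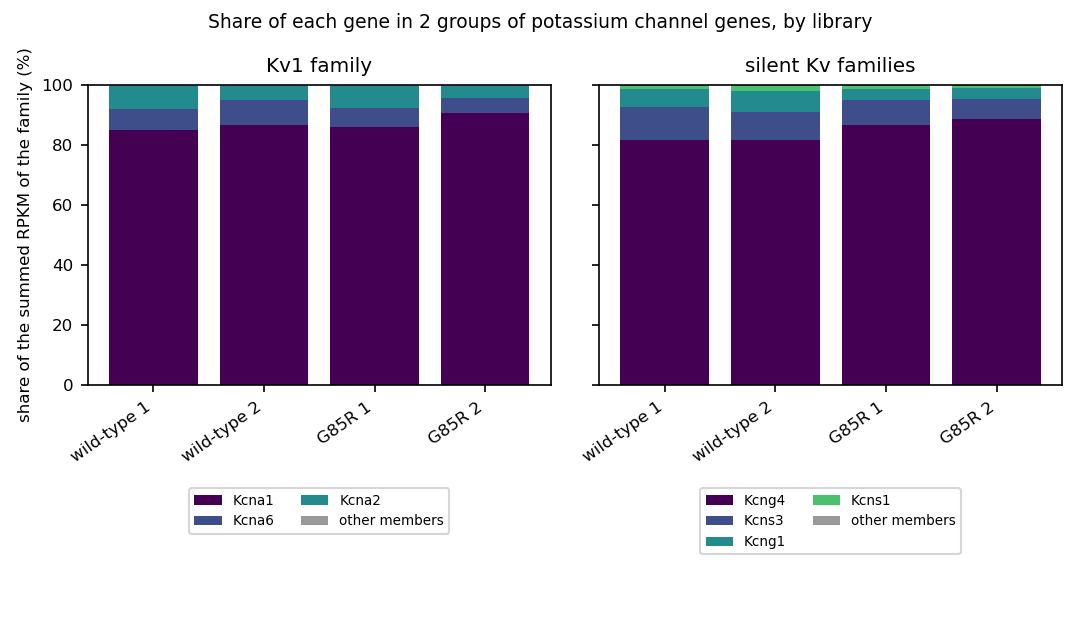
Share (%) of each gene in the summed RPKM of the Kv1 genes and of the silent Kv genes in each of the 4 libraries. Kcng4 takes 81.4% and 81.6% of silent Kv RNA in the wild-type and 86.5% and 88.6% in the G85R libraries, while Kcna1 takes at least 84.8% of Kv1 RNA in every library.

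Kv1 channels open at low voltage and sit on the axon, where they hold back repeated firing. Of 8 Kv1 genes 3 were tested, 0 were called, and Kcna1 alone made up 84.8% to 90.4% of their RNA. Kcna1 had 129 and 121 RPKM in wild-type against 118 and 124 in G85R libraries, which overlapped (log2 fold change -0.05, 95% interval -0.28 to 0.18). Kcna6 (Kv1.6) had 10.7 and 11.5 against 8.39 and 7.06, with no overlap (log2 fold change -0.52, standard error 0.13, adjusted p = 0.200). Exons of Kcna6 overlap the annotated gene Gm17456. Kcna2 (Kv1.2) had 11.4 and 6.93 against 10.4 and 5.56, so that its spread within each genotype was larger than the difference between them.

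The Kv beta subunits bind Kv1 pores inside the cell. Kcnab1, whose protein can make Kv1 channels inactivate, had 141 and 135 in wild-type against 109 and 123 in G85R libraries, without overlap but a modest change (log2 fold change -0.25, standard error 0.10, adjusted p = 0.443). Kcnab2 had 325 and 371 against 339 and 353, and Kcnab3 56.7 and 47.5 against 75.3 and 52.5, and both overlapped. The log2 fold change of Kcnab2 was -0.0043 with a 95% interval of -0.25 to 0.24, and 0.02 after median-ratio rescaling. Exons of Kcnab2 and Kcnab3 overlap the annotated genes Gm16334 and Gm16040.

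Kv4 pores carry the A-type current, which delays the onset of firing, and take up the calcium-binding KChIP subunits (Kcnip genes). The 3 Kv4 genes had log2 fold changes above 0 and none had an unadjusted p under 0.05. Kcnd1 had 10.9 and 15.7 RPKM in wild-type against 13.7 and 13.8 in G85R libraries, and its log2 fold change of 0.07 became -0.19 without wild-type replicate 1. Kcnd2 had 4.81 and 4.35 against 6.29 and 4.68, and Kcnd3 had 2.32 and 2.13 against 2.97 and 2.57, the only Kv4 gene whose genotypes did not overlap (log2 fold change 0.30, adjusted p = 0.603). Exons of Kcnd3 overlap those of another annotated gene. Of the 4 KChIP genes 3 were tested and none was called. Kcnip1 (KChIP1), the most abundant of them, had 44.1 and 39.5 against 28.6 and 31.0, with no overlap (log2 fold change -0.48, standard error 0.11, adjusted p = 0.162). Kcnip4 (KChIP4) had 39.1 and 31.5 against 29.9 and 35.2, which overlapped (log2 fold change -0.11, and 0.04 without wild-type replicate 1). Summed over the 4 KChIP genes, the RPKM was 86.1 and 73.9 in wild-type against 61.8 and 68.7 in G85R libraries.

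**Figure D5:**
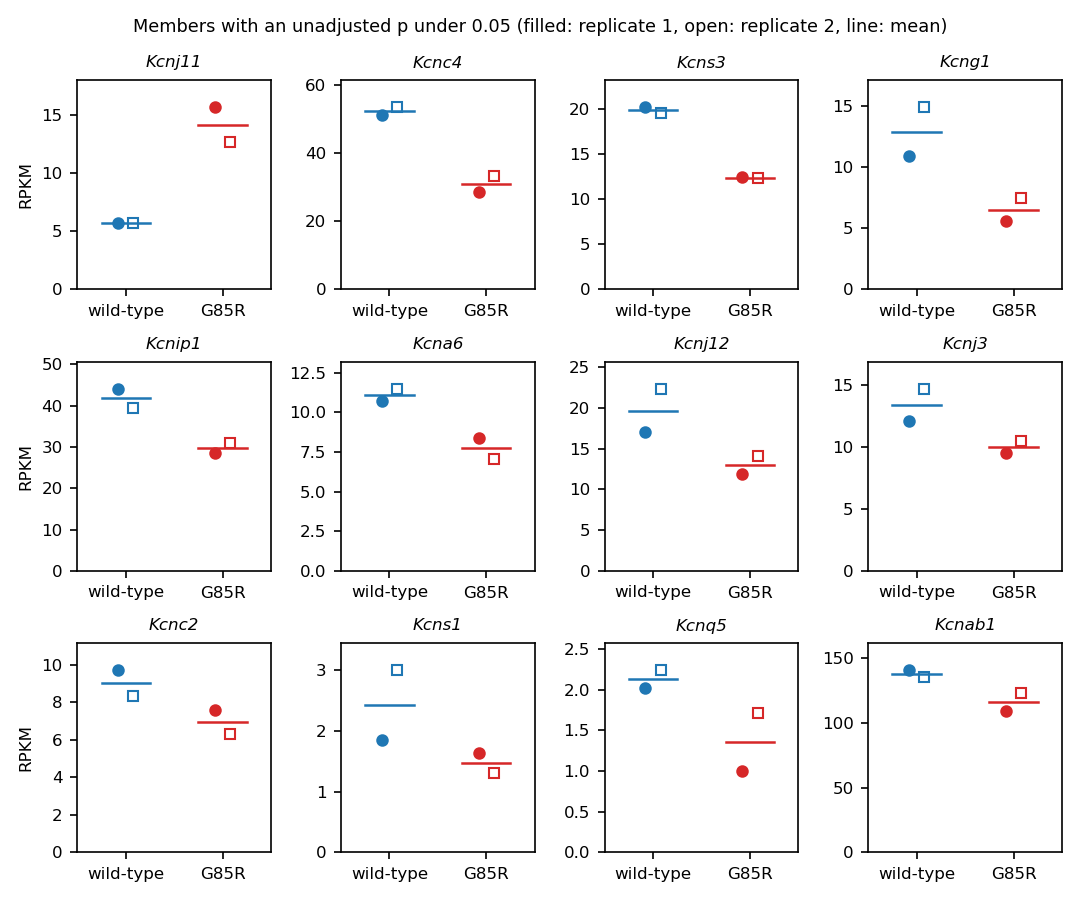
RPKM in each library of the 12 tested potassium channel genes with an unadjusted p under 0.05, ordered by p, with wild-type in blue, G85R in red, replicate 1 filled, replicate 2 open and a line at the mean of the 2 libraries. Kcnj11 is higher in both G85R libraries and the other 11 genes are lower in both, of which Kcnc4 (50.9 and 53.3 against 28.4 and 33.2) and Kcns3 (20.1 and 19.5 against 12.4 and 12.3) have the smallest p.

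Of the 7 Kcnh genes 3 were tested and none had an unadjusted p under 0.05. Kcnh2 codes for ERG1, a channel that closes slowly and so carries current after a spike, and was the most abundant with 54.0 and 65.0 RPKM in wild-type against 68.3 and 79.0 in G85R libraries. It was higher in both G85R libraries without being called (log2 fold change 0.31, adjusted p = 0.455). Kcnh1 (EAG1) had 5.77 and 6.86 against 4.85 and 6.14, which overlapped. Kcnh7, also of the ERG group, was below the level tested with 0.351, 0.136, 0.115 and 0.139.

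The M-current, which opens slowly below the spike threshold and damps repeated firing, is carried by Kcnq pores. Kcnq3 was below the level tested, with 0.770 and 0.614 in wild-type against 0.643 and 0.457 in G85R libraries. Kcnq5 had 2.03 and 2.24 against 1.00 and 1.71 (log2 fold change -0.66, adjusted p = 0.442), on only 28 to 72 estimated reads, and its exons overlap the annotated gene Gm16705.

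The calcium- and sodium-activated channels had 6 tested genes of 8. All 6 had log2 fold changes below 0 with all 4 libraries, but Kcnu1 was above 0 after quantile normalization (0.00438) and without wild-type replicate 1 (0.10), Kcnn1 was above 0 without G85R replicate 1 (0.08), and none had an unadjusted p under 0.05. Kcnt1, the Slack sodium-activated pore, was the most abundant with 20.5 and 20.9 RPKM in wild-type against 17.9 and 18.4 in G85R libraries (log2 fold change -0.19, adjusted p = 0.596). Kcnt2, the related Slick pore, had 1.01 and 1.56 against 0.584 and 0.877 (log2 fold change -0.73, adjusted p = 0.471), on 31 to 96 estimated reads. It reached a mean RPKM of 1 only through the wild-type libraries, where it was higher, so its place among the 6 is no support for their direction. Kcnn2 (SK2), which carries the pause after the spike, had 13.2 and 12.7 against 11.2 and 11.1 (log2 fold change -0.22, adjusted p = 0.544). Both Slack and SK2 were thus lower in both G85R libraries by small amounts.

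Kcnn1 (SK1) had 11.2 and 13.0 against 9.48 and 12.8, and Kcnn3 (SK3) was below the level tested with 0.618, 0.553, 0.478 and 0.606. Kcnma1, the BK pore that opens with both calcium and voltage, had only 3.40 and 4.27 against 3.31 and 3.49, which overlapped. Its neuronal beta subunit Kcnmb4 was far higher, with 57.9 and 71.5 against 58.2 and 57.4, and overlapped too. Exons of Kcnmb4 overlap those of other annotated genes. Kcnu1, the Slo3 pore best known from sperm, was listed at 2.39, 1.96, 2.07 and 2.15.

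Besides Kcnj11, 7 inward rectifier genes were tested, of which 2 had an unadjusted p under 0.05, both lower in G85R. Kcnj12 (Kir2.2), a strong rectifier that holds the resting potential, had 17.0 and 22.3 RPKM in wild-type against 11.8 and 14.1 in G85R libraries (log2 fold change -0.59, standard error 0.16, adjusted p = 0.244). Kcnj3 (GIRK1), a pore opened by G proteins from inhibitory receptors, had 12.1 and 14.7 against 9.50 and 10.5 (log2 fold change -0.41, adjusted p = 0.341), and its exons overlap the annotated gene Gm17595. The genotypes of both genes did not overlap. Kcnj6 (GIRK2) was below the level tested with 0.707 and 0.999 against 0.587 and 0.667. Kcnj16 (Kir5.1), which pairs with Kir4.1 in glia, had 2.27 and 2.25 against 2.77 and 2.36 (log2 fold change 0.17, adjusted p = 0.813). Summed over all 14 genes, the RPKM was 88.8 and 96.9 in wild-type against 90.4 and 94.7 in G85R libraries, so the sums of the G85R libraries lay within the wild-type range.

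The tandem-pore genes code for leak channels, which are open at rest. Of 13 genes 8 were tested, 7 of the 8 had log2 fold changes below 0 (median -0.21), and none had an unadjusted p under 0.05. Kcnk1 (TWIK-1) had 52.8 and 54.6 RPKM in wild-type against 50.5 and 49.7 in G85R libraries, a difference of little size (log2 fold change -0.10, 95% interval -0.33 to 0.13). Kcnk3 (TASK-1), an acid-sensitive leak channel of motor neurons, had 46.5 and 52.4 against 47.5 and 47.8, the G85R values lying between the wild-type values. Kcnk9 (TASK-3), its close relative, had 22.5 and 40.3 against 19.6 and 27.0, so that the spread of the wild-type libraries was larger than the genotype difference (log2 fold change -0.39, and 0.03 without wild-type replicate 2). Kcnk2 (TREK-1), a channel opened by stretch, had 9.87 and 7.80 against 7.44 and 7.30 (log2 fold change -0.25, adjusted p = 0.620). The only MinK-related gene tested, Kcne1l, had 2.22 and 2.67 against 3.78 and 2.80 (log2 fold change 0.40, adjusted p = 0.537).

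Among the 38 members below the tested level, the highest mean over the 4 libraries was 0.740. When the minimum was set to 0.1, 19 of them were tested, 2 had an unadjusted p under 0.05, and 0 were called. Those 2 were Kcnv1, described above, and Kcna3 (Kv1.3), with 0.280 and 0.101 in wild-type against 0.00 and 0.044 in G85R libraries, named after its values were seen. Kcna3 reached the minimum only through the wild-type libraries, where it was higher, so its p is no support for a difference. Kcnb2 (0.535, 0.661, 0.466 and 0.438) and Kcns2 (0.408, 0.436, 0.361 and 0.501) were also below the tested level.

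The channels and proteins that work with potassium channels but fall outside the symbol rule were looked at in a list of 30 genes, of which 27 were matched by symbol and 23 were tested. Of these 23 genes 0 were called and 4 had an unadjusted p under 0.05, beside 0.642% and 11.0% of all tested genes. The median log2 fold change was -0.06. Besides Abcc8, Lrrc52, a gamma subunit of BK and Slo3 channels, was higher in G85R, with 1.74 and 1.59 against 3.46 and 2.85 (log2 fold change 0.88, adjusted p = 0.127). Dlg1, a scaffold that anchors Kv1 and inward rectifier channels, was lower with 10.1 and 11.7 against 7.80 and 7.10 (log2 fold change -0.54, adjusted p = 0.184). Dpp10, a membrane partner of Kv4 channels, was lower with 23.9 and 21.02 against 17.1 and 18.5 (log2 fold change -0.33, adjusted p = 0.387).

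The HCN channels open on hyperpolarization and pass potassium and sodium. Hcn2 had 94.0 and 109 RPKM in wild-type against 109 and 101 in G85R libraries, which overlapped (log2 fold change 0.04). Hcn3 and Hcn4 were low and overlapped too, with log2 fold changes of -0.41 and -0.06. The sign of each of these 3 values depended on which library was left out.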

How the data were processed

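The authors mapped single-end reads with Bowtie 0.12.3 to mm9 and a splice junction database, and quantified genes with Cufflinks. The deposited values are RPKM as calculated and RPKM after the authors added 1 read per gene. Their difference, the RPKM of 1 read, gave estimated reads (RPKM divided by it), which are not exact counts, so no counting intervals were computed.

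Genotypes, 2 libraries each, were tested in R 4.3.3 by limma 3.58.1 (lmFit, eBayes with trend) on log2(RPKM + 0.1). The 11530 genes whose mean RPKM reached 1 entered the test, with Benjamini-Hochberg adjustment over all of them and a threshold of 0.05. An exact permutation test of 2 against 2 libraries cannot give a p below 0.333 and was not used. The fit was also run on simulated data, only to check the code, which does not bear on the calls above. Python 3.11.15, pandas 2.3.3, numpy 2.4.6 and matplotlib 3.10.9 were used for the rest.

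Named members were those called, those with an unadjusted p under 0.05, the 10 largest non-overlapping changes, the highest of each subfamily, the 10 highest, and 40 with a textbook role. Partner genes were named at an unadjusted p under 0.05, and HCN genes whatever their p. The members, lists, filter pattern and neighbour window were chosen with earlier results of these data known. Alternatives were other pseudocounts, scalings, minimum levels, variance models, a block, voom, the study's kind of log-linear test, and leaving out each library. The astrocyte sum without Gfap was added after seeing the data. Sequences came from GENCODE transcripts on NCBIM37 and were checked against that genome. Genes were placed by the same annotation. The splicing and editing measurements of the study were not analysed here. A few genes and sequences are not reported here, though counts over members, families and lists include them.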

Additional observations from a re-analysis of the deposited data

How the results depend on the processing

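With 2 libraries per genotype the calls depended on the variance model. The number of potassium channel genes called was 1, and became 2 with a pseudocount of 1 and with a minimum mean RPKM of 0.1 (Kcnc4 joined Kcnj11). It became 3 with robust eBayes and with voom (Kcnc4 and Kcns3 joined), and 0 with the log-linear test. Under the log-linear test 4 rather than 12 members and 1 rather than 4 partner genes had an unadjusted p under 0.05. That 1 partner gene was Calm3, named after its values were seen, and not Abcc8, Dlg1, Dpp10 or Lrrc52. Without any filter 1 was called, but it was Kcnk7, listed at 0.00, 0.00, 0.034 and 0.032, in place of Kcnj11 (a gene named after its values were seen). With 1 library left out (the lone library then being assumed to vary like the other genotype) 1 to 3 members were called, Kcnj11 in all 4 fits, with Kcng1 added without wild-type replicate 1 and Kcnc4 and Kcng1 without G85R replicate 2.

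The labels number the replicates 1 and 2 in both genotypes but do not say what a number shares. The study drew ratios of G85R to wild-type by replicate pair, without stating what a pair had in common. Deviations of same-numbered libraries from the group means correlated with r = 0.22 over genes. Within a group of 2 these deviations mirror each other, so r cannot decide whether the libraries were pairs. The main fit did not treat them as pairs. With the replicate block, 7 members were called (Kcnj11 higher, and Kcna6, Kcnc4, Kcng1, Kcnip1, Kcnj12 and Kcns3 lower), and 527 of all tested genes.

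The count of called genes over all tested genes was 74 and became 39 with quantile normalization, 17 with a minimum RPKM of 5, 112 without a filter, 49 without the trend, and 78 to 188 with 1 library left out, the highest being without G85R replicate 2.

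Among 709 values of 45 named genes under the alternatives, 22 had the opposite sign and 17 passed the threshold where the main value did not. The sign of the log2 fold change turned for Kcnab2 (0.0187) after median-ratio rescaling and for Kcnu1 (0.00438) after quantile normalization. With 1 library left out, it ranged from -0.666 to 0.232 for Kcna2, from -0.0991 to 0.0905 for Kcnab2, from -0.188 to 0.332 for Kcnd1, from -0.297 to 0.0924 for Kcng4, from -0.268 to 0.0435 for Kcnip4, from -0.0194 to 0.026 for Kcnj10, from -0.138 to 0.0344 for Kcnk3, from -0.805 to 0.0342 for Kcnk9, from -0.345 to 0.084 for Kcnn1, from -0.17 to 0.104 for Kcnu1, from -0.0655 to 0.152 for Hcn2, from -1.12 to 0.308 for Hcn3 and from -0.362 to 0.236 for Hcn4. None of these genes was called. The cause of these changes was not tested.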
